A study of Mus musculus with 2 samples.

Results

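Low-threshold C-fibre touch neurons are unmyelinated sensory neurons of the dorsal root ganglion that end around hair follicles and respond to light stroking of hairy skin. In mouse they are recognised by 2 transcripts that other ganglion neurons largely lack: Th, which encodes tyrosine hydroxylase, the enzyme that turns tyrosine into L-DOPA, and Tafa4, which encodes a small secreted protein. Here they were taken as barcodes with at least 500 genes, under 20% mitochondrial UMIs, at least 10000 UMIs and a summed level of the neuronal genes Uchl1, Tubb3, Snap25 and Stmn2 of at least 25 per 10000 UMIs, of which those with Th at 5 or more per 10000 UMIs and at least 1 Tafa4 UMI were kept. A UMI is a molecular tag that counts 1 captured RNA molecule. By this rule 142 of 1581 neurons were TH neurons: 35 of 638 in replicate 1 (5.49%, 95% interval 3.85 to 7.55%) and 107 of 943 in replicate 2 (11.3%, 95% interval 9.39 to 13.5%). The intervals are exact (Clopper-Pearson) and cover counting error only. Th, Tafa4 and the 4 neuronal genes were used by the rule; the other genes were not, but were read in the same cells.

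The cells came from lumbar L4-5 dorsal root ganglia of wild-type mice aged 8 weeks that had been treated with acetone-ether-water, a dry-skin itch model, and were sequenced as 2 droplet libraries with 10x Genomics 3' chemistry. Both libraries belong to the treated group, so nothing below measures an effect of the treatment. The labels do not say whether the 2 libraries came from separate mice, and p-values measure only the spread between them, which may be technical. For each gene that spread was estimated largely with information shared across genes. The reference was all other neurons of the same gate, 603 in replicate 1 and 836 in replicate 2, and, for closer comparison, 3 classes among them: 92 and 60 Mrgprd neurons (Mrgprd at least 2 per 10000), 201 and 378 Tac1 neurons (Tac1 at least 10 per 10000) and 58 and 42 Nefh neurons (Nefh at least 10 and Calca under 20 per 10000).

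The labels name the cell type as neuron, yet the barcodes hold the whole ganglion: of 8329 and 11290 barcodes that passed the first 2 filters, 638 and 943 met the neuronal gate, while 2907 and 3036 were satellite glia by their markers. TH neurons had a median of 132580 UMIs in replicate 1 and 62256 in replicate 2, against 97707 and 56684 in other neurons. The median mitochondrial share was 3.68% and 4.28% in TH neurons, against 2.47% and 3.65% in other neurons. The libraries share 24 barcode sequences, of which 1 belonged to a TH neuron, in replicate 2. Scrublet, a doublet caller, marked 0 and 3 of the TH neurons, against 23 and 39 of the other neurons; none was removed.

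The promoters of the 2 genes that chose the neurons, Th and Tafa4, are shown as background. The rule read UMIs of their transcripts, and promoter activity was not measured. They are RefSeq sequences of build GRCm38.p6 (the same coordinates as mm10), from 250 bases before to 50 bases after the start of the gene. Capitals mark letter matches to a cAMP response element (TGACGTCA), an E-box (CACGTG) or a CCAAT box (CCAAT, or ATTGG on the other strand).
Th promoter (chr7:142899946-142900245, minus strand): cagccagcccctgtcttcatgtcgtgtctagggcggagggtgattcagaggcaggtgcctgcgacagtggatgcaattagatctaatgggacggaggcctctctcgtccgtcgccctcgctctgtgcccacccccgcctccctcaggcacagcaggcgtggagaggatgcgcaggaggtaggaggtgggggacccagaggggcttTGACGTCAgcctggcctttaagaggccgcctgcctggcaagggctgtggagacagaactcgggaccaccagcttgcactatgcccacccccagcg
Tafa4 promoter (chr6:97060362-97060661, minus strand): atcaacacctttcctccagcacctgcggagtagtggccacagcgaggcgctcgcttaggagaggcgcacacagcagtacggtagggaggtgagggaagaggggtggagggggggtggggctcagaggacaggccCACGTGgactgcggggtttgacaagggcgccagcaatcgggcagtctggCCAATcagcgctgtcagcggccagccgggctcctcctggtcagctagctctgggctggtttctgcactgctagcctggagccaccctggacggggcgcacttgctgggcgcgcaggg
The Th window held TGACGTCA at offset -45 from the start, a sequence found in 586 of 32544 mouse promoters of this length in the RefSeq table (1.8%). The Tafa4 window held CACGTG at offset -116 (7.17% of promoters hold it) and CCAAT at offset -67 (37.4% hold it on either strand). Neither window held TGTGGT or its reverse ACCACA, the core letters bound by RUNX factors, which 16.7% of promoters hold. Among the 5 markers and the 12 leading genes named below, 13 had a promoter in the table: TGACGTCA was in 1 of them, CACGTG in 3, CCAAT in 4 and TGTGGT in 1. These are letter matches, not measured binding.

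The markers of the class describe the neurons and were not tested. Th was at 930.0 and 875 CPM in TH neurons, against 19.9 and 42.8 CPM in other neurons (CPM, the summed UMI counts scaled to a common library size with TMM factors, for replicates 1 and 2). Tafa4 was at 529 and 508 CPM in TH neurons, against 23.4 and 46.5 CPM in other neurons. No TH neuron lies below the Th threshold by construction, so these 2 genes only show how far the chosen neurons stood from the rest. The remaining markers were not used by the rule. Wfdc2, which encodes a secreted protease-inhibitor-like protein, was at 435 and 313 CPM in TH neurons, against 22.4 and 38.4 CPM in other neurons. C1ql4, a C1q-like secreted synaptic protein, was at 146 and 115 CPM in TH neurons, against 14.7 and 24.8 CPM in other neurons. Rarres1, a retinoic-acid-responsive gene, was at 451 and 384 CPM in TH neurons, against 61.4 and 77.6 CPM in other neurons. Summed per library, Wfdc2, C1ql4 and Rarres1 were higher in TH neurons in both libraries. Neuron by neuron this did not hold throughout: in replicate 2, 26 of 107 TH neurons had no C1ql4 UMI and 5 had no Wfdc2 UMI. A Rarres1 UMI was seen, without thinning, in 51.1% and 53.0% of other neurons. These 3 markers did not go against the label.

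**Figure D1:**
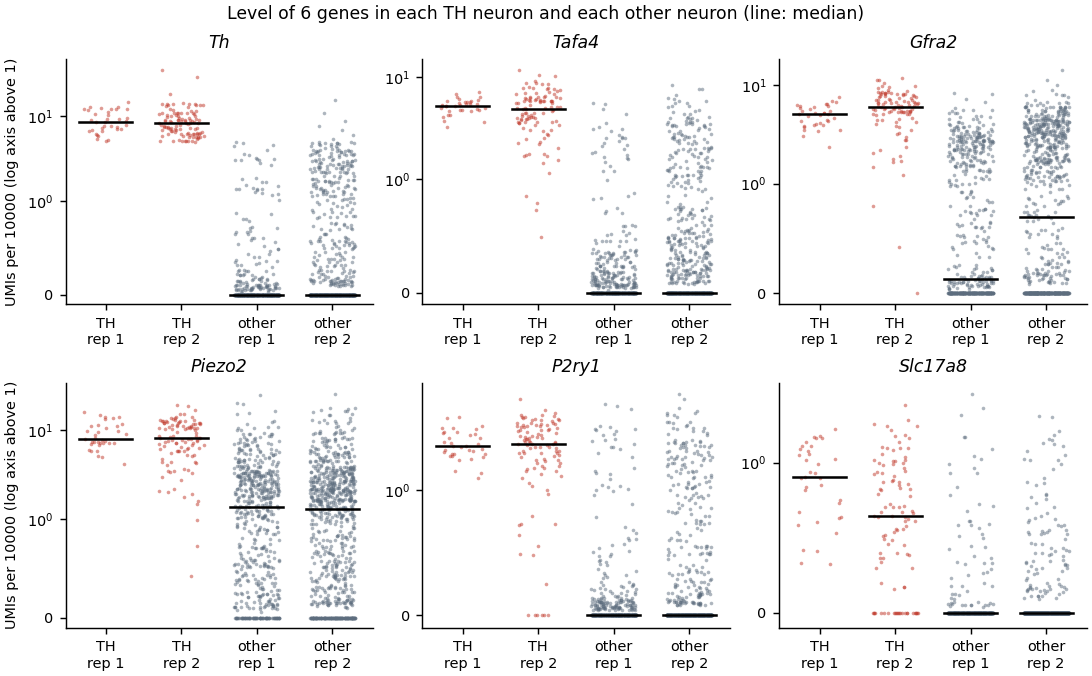
Level of 6 genes in each neuron, in UMIs per 10000 on an axis that is logarithmic above 1, for TH neurons (left, red) and other neurons (right, grey) of each replicate, with the median as a line. Th and Tafa4 were used by the rule; the medians of Gfra2, Piezo2, P2ry1 and Slc17a8, which were not, also lie above those of the other neurons in both replicates, with single neurons of the groups overlapping.

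From neuron to neuron, Th ranged from 5.12 to 14.6 per 10000 UMIs in replicate 1 (median 8.59) and from 5.00 to 34.8 in replicate 2 (median 8.27). Piezo2, the touch-sensing mechanosensitive channel, had medians of 7.92 (lowest 4.15, highest 15.9) and 8.12 (lowest 0.425, highest 18.9) per 10000. Gfra2, the neurturin co-receptor of Ret, had medians of 5.08 (lowest 2.32, highest 7.47) and 6.02 (lowest 0, highest 11.6) per 10000. In replicate 1 every TH neuron had UMIs of all 3 genes; in replicate 2 the neurons spread more widely, down to 10342 UMIs of depth, and 1 neuron had no Gfra2 UMI. After each neuron was thinned to 10000 UMIs, a UMI of P2ry1, a purinergic receptor, was left in 88.6% (73.3 to 96.8%) and 86.0% (77.9 to 91.9%) of TH neurons, against 7.96% (5.93 to 10.4%) and 19.7% (17.1 to 22.6%) of other neurons. For Slc17a8, the vesicular glutamate transporter VGLUT3, the shares were 54.3% (36.6 to 71.2%) and 47.7% (37.9 to 57.5%) of TH neurons, against 3.48% (2.17 to 5.27%) and 5.98% (4.47 to 7.81%) of other neurons. Without thinning, 100% and 77.6% of TH neurons had a Slc17a8 UMI.

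Free RNA gives UMIs in droplets whose cell does not express a gene. Satellite glia barcodes thinned to the same depth were read as a guide to its size (719 and 394 barcodes, median 12012 and 12160 UMIs before thinning). Th was left in 0.695% and 2.79% of them, Tafa4 in 1.39% and 6.85%, P2ry1 in 4.31% and 5.58%, and Slc17a8 in 0.278% and 1.02%, all under the shares in TH neurons. The peptide gene Calca was different: a UMI was left in 65.7% and 75.7% of TH neurons, but in 89.6% and 93.9% of satellite glia. The glia held fewer UMIs than TH neurons before thinning, so free RNA can weigh differently in the 2 shares. The summed level was 435 and 677 CPM in TH neurons and 357 and 563 CPM in all satellite glia barcodes (without TMM scaling). How much of the Calca in TH neurons was free RNA was not tested. The neurofilament gene Nefh was likewise left in 62.9% and 50.5% of TH neurons and in 76.6% and 57.1% of glia.

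Calca and Tac1 also varied widely between TH neurons. Calca had a median of 0.900 and 0.993 per 10000 but reached 89.3 and 176 in single neurons. Tac1, the substance P precursor, had a median of 1.44 and 1.92 and reached 16.4 and 52.9. At 10 or more Tac1 UMIs per 10000, the level that defines Tac1 neurons here, stood 1 and 19 TH neurons. None of the TH neurons reached the Mrgprd level of 2 per 10000. Removing the 1 and 19 Tac1-rich neurons changed no call among the 147 genes named by rule below.

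Around the thresholds the markers graded. Within the rule, 12 and 32 neurons had Th at 10 or more per 10000 and 23 and 75 had Th from 5 to under 10. Outside it, 10 and 80 neurons had a Tafa4 UMI and Th from 2 to under 5. Over these 3 bins, from the highest Th to the lowest, Rarres1 was at 485, 419 and 335 CPM (here without TMM scaling) in replicate 1, and at 474, 355 and 234 in replicate 2. Over the same bins Piezo2 was at 905, 892 and 677 in replicate 1 and at 855, 972 and 524 in replicate 2. The neurons just outside thus carried the class's genes at intermediate levels; their median depth came to 164447 UMIs in replicate 1, and 21524 in replicate 2, where Calca was at 3609 CPM in them. A different set was excluded by the Tafa4 condition: 0 and 7 neurons had Th at 5 or more and no Tafa4 UMI. Those 7 had Th at 922 CPM, but Wfdc2 at 2.80, P2ry1 at 14.01 and Piezo2 at 143, with Calca at 8942 and Tac1 at 1894.

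**Figure D2:**
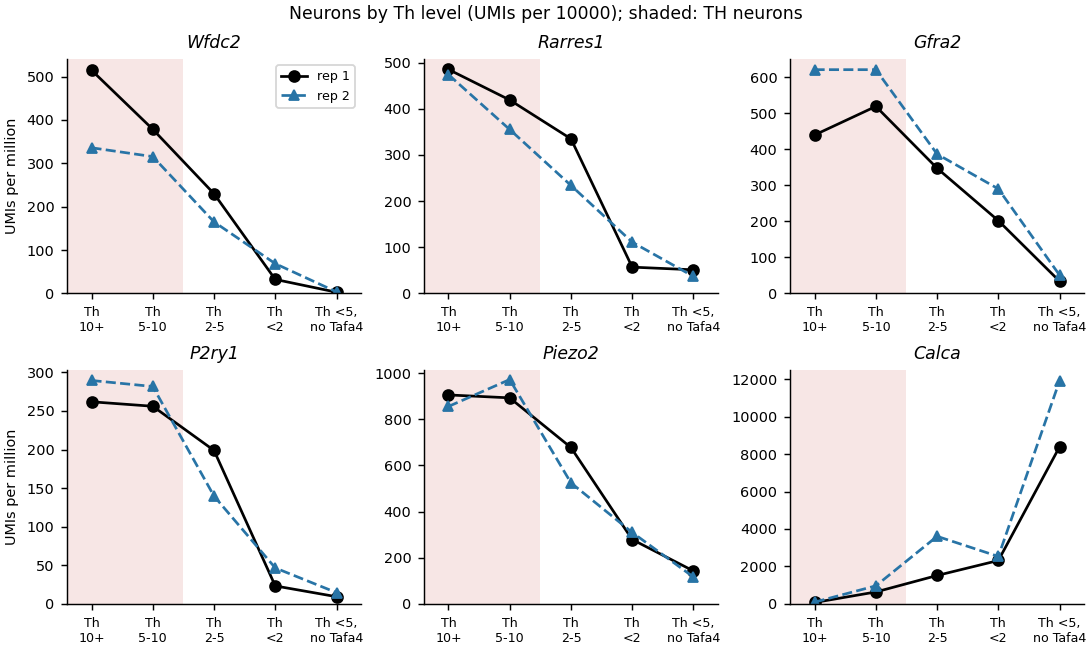
CPM without TMM scaling of 6 genes over neurons binned by Th level, from Th at 10 or more per 10000 (left) to neurons with Th under 5 and no Tafa4 UMI (right), with a line per replicate and TH neurons shaded. Wfdc2 and P2ry1 step down from the TH neurons to the bin with Th under 2, and Calca is highest in neurons with no Tafa4 UMI.

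Against all other neurons, summed per library, 4563 of 14376 genes passed an adjusted p of 0.05 (31.7% of genes; edgeR's quasi-likelihood test with a term for library and Benjamini-Hochberg adjustment). Of these, 1920 were higher in TH neurons (13.4% of genes tested) and 2643 were lower (18.4%). With a log2 difference of 1 or more as well, 871 were higher (6.06%) and 1822 lower (12.7%). The median log2 difference over all genes tested was -0.048. A value after ± is a standard error derived from the test statistic, with spread shared across genes. It is not the spread between the 2 replicates, which can be wider. The genes of the rule, of the class gates and of the marker lists are described without a test, since they chose the neurons or were picked as their markers.

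The 12 genes with the largest increase encode transporters, receptors, channels and secreted proteins, among others. Slc51a (GRCm38 chr16:32474504-32487879, minus strand), the alpha subunit of the bile acid and steroid transporter OST, was at 51.8 and 42.6 CPM in TH neurons, against 1.28 and 3.05 CPM in other neurons (log2 difference 4.53 ± 0.28, adjusted p = 7.80e-09, or 5.31 and 3.81 within replicates 1 and 2). Bmp15, a growth factor best known from the oocyte, was at 43.5 and 41.0 CPM in TH neurons, against 1.26 and 3.55 CPM in other neurons (log2 difference 4.25 ± 0.29, adjusted p = 1.65e-08, or 5.08 and 3.53 within replicates 1 and 2). Dgkk, a diacylglycerol kinase, was at 76.1 and 74.8 CPM in TH neurons, against 3.12 and 5.12 CPM in other neurons (log2 difference 4.23 ± 0.20, adjusted p = 7.40e-10). The lowest TH value of each gene lay more than 10 times above the highest value in other neurons, a gap that largely follows from their choice by largest difference. Several others encode signalling proteins: Gnb3, a G-protein beta subunit (26.1 and 22.6 CPM in TH neurons against 0.866 and 1.98 CPM in other neurons, log2 4.16, or 4.88 and 3.51 within replicates 1 and 2), Cckar, the cholecystokinin A receptor (138 and 134 CPM in TH neurons against 5.45 and 12.2 CPM in other neurons, log2 4.04, or 4.64 and 3.46 within replicates 1 and 2), and Ccl1, a chemokine (64.6 and 41.8 CPM in TH neurons against 3.60 and 3.79 CPM in other neurons, log2 3.82). Cacna1i encodes the low-voltage-activated calcium channel Cav3.3 and was at 46.6 and 56.2 CPM in TH neurons, against 1.89 and 4.99 CPM in other neurons (log2 difference 4.01 ± 0.24, adjusted p = 4.41e-09). Slc17a8, already met above, was at 98.5 and 74.98 CPM in TH neurons, against 4.69 and 6.04 CPM in other neurons (log2 difference 4.01 ± 0.19, adjusted p = 9.51e-10). The list closes with Ighg2c, an immunoglobulin constant-region gene (log2 4.08), Tmem132c (4.02), Ceacam10 (3.81, or 4.60 and 3.02 within replicates 1 and 2) and the long noncoding RNA AI504432 (3.64). Ighg2c and Ceacam10 have near-identical relatives, which may affect their counts.

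The 12 genes with the largest decrease included receptors, channels and a neuropeptide. Npy2r, the neuropeptide Y2 receptor, had 1 and 3 UMIs in all TH neurons, or 0.218 and 0.498 CPM in TH neurons, against 28.0 and 23.9 CPM in other neurons (log2 difference -6.08 ± 0.38, adjusted p = 6.78e-09, or -7.01 and -5.57 within replicates 1 and 2). Ly86 (chr13:37345208-37419036, plus strand), which encodes MD-1, was at 18.5 and 20.1 CPM in TH neurons, against 1102 and 752 CPM in other neurons (log2 difference -5.55 ± 0.18, adjusted p = 5.03e-11). Tmem233 was at 8.92 and 23.4 CPM in TH neurons, against 715 and 652 CPM in other neurons (log2 difference -5.42 ± 0.25, adjusted p = 7.58e-10, or -6.35 and -4.79 within replicates 1 and 2). The library sums of the groups did not overlap for any of the 3, which their choice by largest difference all but fixed. Nts, neurotensin (log2 -5.23), Htr3a, the serotonin-gated channel (-4.82), Kcnmb1, a beta subunit of the BK channel (-4.72, or -5.63 and -4.34 within replicates 1 and 2), Kcnk12, a tandem-pore potassium channel (-4.62), Hs6st2, a heparan sulfate sulfotransferase (-4.62, or -5.23 and -4.17 within replicates 1 and 2), and Sdc1, syndecan 1 (-4.61), were also lower, as were Gm765 (-5.16), Nnat (-5.10, or -6.06 and -4.36 within replicates 1 and 2) and Insm2 (-5.03, or -6.75 and -4.51 within replicates 1 and 2). Of the 24 genes named for their size, 7 overlap another annotated gene on the opposite strand (Slc51a, Tmem132c, AI504432, Gm765, Nnat, Htr3a and Kcnmb1), and whether the counting used strand is not given in the sources used here.

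**Figure D3:**
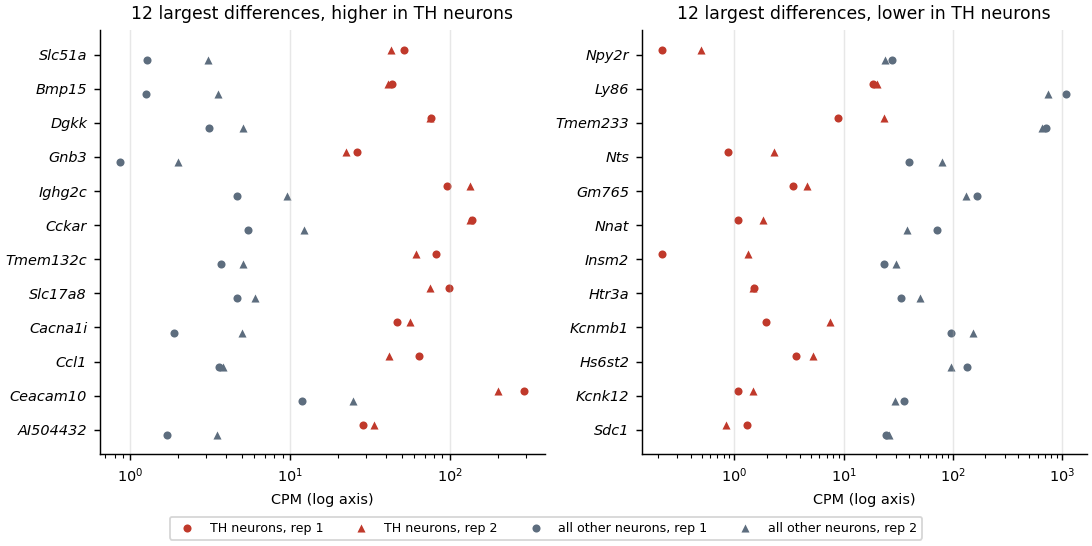
CPM, on a logarithmic axis, of the 12 genes with the largest positive and the 12 with the largest negative log2 difference, in TH neurons (red) and all other neurons (grey), with circles for replicate 1 and triangles for replicate 2. For each of the 24 genes the 2 TH values lie on the same side of the 2 values of the other neurons, which the choice of genes by size and sign all but fixed.

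Genes known from earlier work on these neurons were mostly higher. Of 20 such genes tested, 17 were higher and 2 lower, with a median log2 difference of 2.33 (all genes -0.048); the list was chosen with results of these data known and is not independent evidence. Of all genes tested, 13.4% were higher and 18.4% lower, and the shares printed with each list below stand beside these. Piezo2 was at 911 and 907 CPM in TH neurons, against 221 and 217 CPM in other neurons (log2 difference 2.05 ± 0.13, adjusted p = 6.42e-09). Gfra2 was at 498 and 604 CPM in TH neurons, against 121 and 164 CPM in other neurons (log2 difference 1.96 ± 0.13, adjusted p = 1.32e-08). P2ry1 was at 262 and 276 CPM in TH neurons, against 20.9 and 34.6 CPM in other neurons (log2 difference 3.32 ± 0.17, adjusted p = 1.36e-09). The replicates of each class lay close together beside the gap between classes. Zfp521, a zinc-finger transcription factor (log2 3.24), Cdh9, a cadherin (3.05), Gm7271 (2.82), Bok (2.86), Lypd1 (2.64) and Iqsec2 (2.60) passed in the same direction. Cdhr1, a cadherin-related gene, was lower, at 1.74 and 0.995 CPM in TH neurons, against 34.9 and 27.7 CPM in other neurons (log2 difference -4.54 ± 0.28, adjusted p = 7.03e-09). So was Prdm8 (log2 -0.95, adjusted p = 0.00163), whose call was lost with cells thinned to 10000 UMIs. Nxph1 had 0 and 3 UMIs and did not pass (adjusted p = 0.101).

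Tyrosine hydroxylase is the first enzyme of catecholamine synthesis, and the genes of the later steps were at or near 0. Ddc, the decarboxylase that makes dopamine from L-DOPA, Dbh, which makes noradrenaline, and Pnmt, which makes adrenaline, had 0 UMIs among 4671188 and 5860301 UMIs of TH neurons, which allows up to 3 UMIs in each library. The other neurons also held Ddc at 0.157 and 0.240 CPM and Dbh at 0.157 and 0.327 CPM, so no difference between the classes was detectable at this depth. The plasma membrane carriers Slc6a2 and Slc6a3 had no UMI in either class, and the vesicular carrier Slc18a2 had 4 and 1 UMIs in TH neurons. The cofactor of the enzyme, tetrahydrobiopterin, depends on further genes. Gch1, the rate-limiting step of its synthesis, was lower at 1.09 and 2.32 CPM in TH neurons, against 7.70 and 11.1 CPM in other neurons (log2 difference -2.45 ± 0.32, adjusted p = 2.14e-05). Qdpr, which regenerates it, was lower (log2 -1.32, adjusted p = 2.07e-06), as were Spr (-0.76) and Pcbd2 (-0.48), whereas Pcbd1 (1.03) and Pts (0.43) were higher. The calls of Pts and Pcbd2 were lost with DESeq2, without the library term and with thinning, and that of Spr with thinning. Maoa, which breaks down monoamines, was higher, at 92.2 and 104 CPM in TH neurons, against 43.7 and 53.2 CPM in other neurons (log2 difference 1.02 ± 0.14, adjusted p = 2.99e-05). In all, 3 of 12 tested genes of synthesis and handling were higher and 5 lower (median -0.44, 25% higher and 41.7% lower). Of 5 adrenergic and dopamine receptors tested, Adrb1 was higher (15.7 and 20.1 CPM in TH neurons against 1.94 and 3.07 CPM in other neurons, log2 2.85) and Adra2c lower (2.18 and 3.98 CPM in TH neurons against 15.8 and 14.4 CPM in other neurons, log2 -2.25, or -2.88 and -1.84 within replicates 1 and 2).

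Transmitter genes included some that were higher and some that were lower. Among 4 tested vesicular transporters, Slc17a8 was higher and Slc17a7 (VGLUT1), typical of large-fibre neurons, was lower (2.83 and 0.829 CPM in TH neurons against 25.7 and 26.9 CPM in other neurons, log2 -3.94, or -3.21 and -5.01 within replicates 1 and 2). Slc17a6 (VGLUT2), the main glutamate transporter of the ganglion, was at 206 and 227 CPM in TH neurons, against 173 and 175 CPM in other neurons and did not pass (adjusted p = 0.0783). Of 29 genes of the release machinery, 10 were higher and 10 lower (median 0.074, 34.5% higher and 34.5% lower), and some related proteins differed in direction. The vesicle protein Sv2a was higher (173 and 147 CPM in TH neurons against 45.9 and 47.4 CPM in other neurons, log2 1.77) and Sv2b lower (1.74 and 1.99 CPM in TH neurons against 40.9 and 37.7 CPM in other neurons, log2 -4.38). Of the calcium sensors, Syt1 was higher (log2 1.15) and Syt2 lower (-3.78); of the active-zone proteins, Rims1 was higher (2.48) and Unc13c lower (-3.75). Against all other neurons, neuropeptide genes were lower in 14 of 19 and higher in 2 (median -2.32, 10.5% higher and 73.7% lower). Scg2, secretogranin II, was at 23.7 and 48.4 CPM in TH neurons, against 464 and 644 CPM in other neurons (log2 difference -3.98 ± 0.17, adjusted p = 3.07e-10). Pcsk2, a peptide-processing protease, was at 7.83 and 10.6 CPM in TH neurons, against 252 and 144 CPM in other neurons (log2 difference -4.33 ± 0.23, adjusted p = 1.83e-09, or -5.03 and -3.75 within replicates 1 and 2). Chgb, chromogranin B, was higher (log2 0.71, adjusted p = 0.00231), a call lost with thinning. Nmu, neuromedin U, was higher at a low level (7.61 and 8.29 CPM in TH neurons against 0.708 and 0.872 CPM in other neurons, log2 3.33). Npy had 2 and 0 UMIs in TH neurons, against 35.4 and 0.414 CPM in other neurons, a ratio of 109 (counting interval 30.0 to 897) that rests on replicate 1 and whose call was lost without the library term.

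Channels of touch, heat and cold were next examined. Of 13 mechanosensitive channel genes tested, Piezo2 and Tmem63b (262 and 229 CPM in TH neurons against 111 and 121 CPM in other neurons, log2 1.08) were higher and 6 were lower (median -1.22, 15.4% higher and 46.2% lower), among them Tmem63a (log2 -4.01, or -4.75 and -3.57 within replicates 1 and 2) and the mechano-gated potassium channel Kcnk2 (-3.61, or -3.14 and -4.23 within replicates 1 and 2). Of 12 tested TRP channel genes 2 were higher and 7 lower (median -0.78, 16.7% higher and 58.3% lower). Trpa1, the irritant receptor, was at 15.7 and 13.6 CPM in TH neurons, against 33.0 and 36.1 CPM in other neurons (log2 difference -1.24 ± 0.18, adjusted p = 5.29e-05). Trpv4 was higher at a low level (1.96 and 3.82 CPM in TH neurons against 0.268 and 0.567 CPM in other neurons). The heat receptor Trpv1, a marker of Tac1 neurons and not tested, was at 10.0 and 14.6 CPM in TH neurons, against 146 and 126 CPM in other neurons. The cold receptor Trpm8, also untested, had 0 UMIs in either replicate of TH neurons, against 7.76 and 1.02 CPM in other neurons, most of it in replicate 1.

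Of 16 voltage-gated sodium channel genes and partners tested, 8 were higher and 6 lower (median 0.47, 50% higher and 37.5% lower). Scn10a and Scn11a, the tetrodotoxin-resistant channels of nociceptors, were lower. Scn10a was at 177 and 157 CPM in TH neurons, against 353 and 289 CPM in other neurons (log2 difference -0.94 ± 0.13, adjusted p = 3.39e-05). Scn11a was at 166 and 118 CPM in TH neurons, against 307 and 249.8 CPM in other neurons (log2 difference -0.99 ± 0.13, adjusted p = 2.53e-05). Scn9a was higher (log2 0.65), as were Scn3a (1.75) and the beta subunits Scn3b (1.51) and Scn2b (0.90). The intracellular partner Fgf12 was higher (1.46) while its relative Fgf13 was lower (-1.62). Among the T-type calcium channel genes, Cacna1i was named above. Cacna1h (Cav3.2) was at 36.8 and 53.3 CPM in TH neurons, against 14.6 and 18.9 CPM in other neurons (log2 difference 1.41 ± 0.16, adjusted p = 3.83e-06). Cacna1g had 0 UMIs in TH neurons. Cacna1c and Cacna1e, of the high-voltage-activated family, were lower (log2 -3.66 and -3.54). In all, 5 of 17 calcium channel genes were higher and 5 lower (median -0.12, 29.4% higher and 29.4% lower).

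Potassium channels were the largest list, with 22 of 60 genes higher and 26 lower (median -0.31, 36.7% higher and 43.3% lower). Kcnd3, the A-type channel Kv4.3, was at 399 and 372 CPM in TH neurons, against 45.9 and 49.1 CPM in other neurons (log2 difference 3.02 ± 0.14, adjusted p = 6.93e-10). Its auxiliary subunit Dpp10 was at 288 and 287 CPM in TH neurons, against 80.5 and 73.8 CPM in other neurons (log2 difference 1.90 ± 0.13, adjusted p = 2.34e-08). Kcna4, another A-type channel, was higher (log2 1.60), as was the inward rectifier Kcnj12 (2.08). These genes were named for the largest increases of the list, so their direction says nothing of A-type channels as a group. Kcnq3, an M-current subunit, was lower (log2 -4.58, or -3.98 and -5.47 within replicates 1 and 2), as was Kcnj3, a G-protein-gated rectifier (-4.58). Among pacemaker channels, Hcn2 (0.91) and Hcn3 (0.69) were higher and Hcn4 (-1.14) was lower; the calls of Hcn3 and Hcn4 were lost with DESeq2, with thinning and with Th at 10 per 10000, and that of Hcn3 without the library term. Of 16 acid-sensing and purinergic genes, 5 were higher and 5 lower (median -0.67, 31.2% higher and 31.2% lower). Asic3 was at 1.52 and 1.82 CPM in TH neurons, against 25.4 and 47.4 CPM in other neurons (log2 difference -4.46 ± 0.27, adjusted p = 5.65e-09). P2rx3, the ATP-gated channel of nociceptors, was lower (log2 -2.78).

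Receptors were compared with those of all other neurons. Of 7 tested trophic receptor genes, Gfra2, Ret (671 and 579 CPM in TH neurons against 313 and 302 CPM in other neurons, log2 1.02), Gfra4 (0.94, a call lost without the library term) and Ncam1 (1.13) were higher, and Gfra3 (-3.56, or -4.35 and -3.18 within replicates 1 and 2) and Kit (-3.06) were lower (median 0.94, 57.1% higher and 28.6% lower). Against all other neurons, opioid and other inhibitory receptors were lower in 10 of 14 and higher in 2 (median -3.52, 14.3% higher and 71.4% lower). Oprm1, the mu opioid receptor, had 1 UMI in each replicate of TH neurons, 35.4-fold lower than in other neurons (counting interval 9.76 to 293). Gabbr2, a subunit of the GABA-B receptor, was higher at 238 and 218 CPM in TH neurons, against 128 and 118 CPM in other neurons (log2 difference 0.89 ± 0.13, adjusted p = 5.71e-05). Of 18 tested itch receptor genes 13 were lower and 2 higher (median -3.60, 11.1% higher and 72.2% lower). Htr1f, a serotonin receptor, had 0 and 1 UMIs, 168-fold lower (counting interval 30.1 to 6645). Osmr, the oncostatin M receptor, was at 1.96 and 3.48 CPM in TH neurons, against 44.3 and 37.9 CPM in other neurons (log2 difference -3.86 ± 0.26, adjusted p = 1.34e-08, or -4.52 and -3.43 within replicates 1 and 2). Hrh3, a histamine receptor, was higher (7.18 and 7.13 CPM in TH neurons against 1.75 and 2.57 CPM in other neurons, log2 1.74). Of 22 ligand-gated GABA and glutamate channel genes, 10 were higher and 9 lower (median 0.019, 45.5% higher and 40.9% lower). Gabrb1 was at 27.6 and 41.6 CPM in TH neurons, against 7.89 and 10.7 CPM in other neurons (log2 difference 1.89 ± 0.18, adjusted p = 4.91e-07). Gabra2 was higher too (log2 1.42). The AMPA receptor genes Gria1 (log2 -0.61), Gria2 (-1.23) and Gria4 (-2.12) were lower, for Gria1 with a call lost with DESeq2, with thinning and with Th at 10 per 10000.

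**Figure D4:**
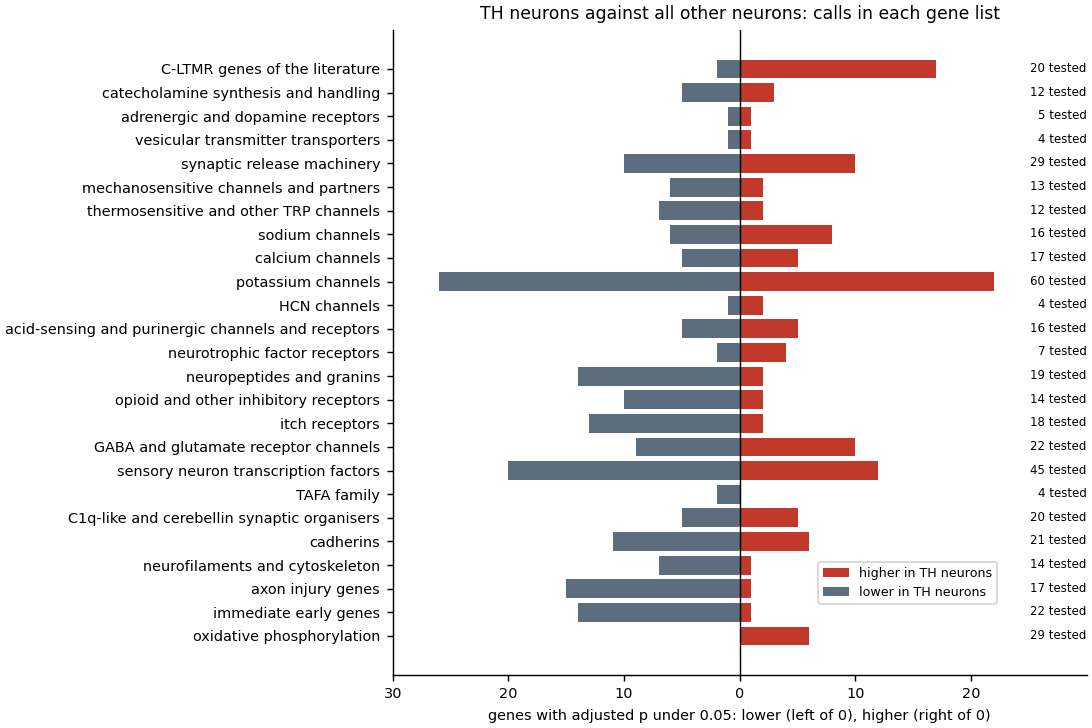
Number of genes of each list with an adjusted p under 0.05 that were higher (red, right) or lower (grey, left) in TH neurons than in all other neurons, with the number tested at the right. Genes of the rule, the gates and the marker lists are left out. Neuropeptide, itch receptor, inhibitory receptor, injury and immediate early lists lie mostly on the lower side.

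Transcription factors gave 12 higher and 20 lower of 45 tested (median -0.45, 26.7% higher and 44.4% lower). Pou4f1 (Brn3a), a factor of all sensory neurons, was at 566 and 631 CPM in TH neurons, against 162 and 186 CPM in other neurons (log2 difference 1.78 ± 0.13, adjusted p = 2.67e-08). Its relative Pou4f2 was at 92.0 and 123 CPM in TH neurons, against 9.13 and 16.4 CPM in other neurons (log2 difference 3.11 ± 0.16, adjusted p = 1.39e-09). Runx1, required in mouse for several C-fibre fates, was higher (log2 1.11), as were Casz1 (2.21) and Bhlha9 (3.13). Etv1 was lower (5.44 and 2.82 CPM in TH neurons against 112 and 82.7 CPM in other neurons, log2 -4.59), with Bcl11a (-3.39), Bcl11b (-4.35) and Hmx1 (-3.40). Adhesion and synapse-organising genes were mixed. Of 21 cadherins 6 were higher and 11 lower (median -1.20, 28.6% higher and 52.4% lower). Cdh10 was at 40.7 and 34.3 CPM in TH neurons, against 3.65 and 4.25 CPM in other neurons (log2 difference 3.25 ± 0.20, adjusted p = 5.65e-09). Pcdh17 was lower (log2 -3.44, or -4.27 and -2.89 within replicates 1 and 2). Of 20 C1q-like, cerebellin and neurexin-partner genes 5 were higher and 5 lower (median -0.18, 25% higher and 25% lower). Nxph3, a neurexin ligand, was at 61.3 and 49.1 CPM in TH neurons, against 6.17 and 9.14 CPM in other neurons (log2 difference 2.87 ± 0.20, adjusted p = 2.65e-08). C1ql1 had no UMI and C1ql3 had 1 UMI in each replicate of TH neurons, unlike C1ql4. Of 4 TAFA genes tested, Tafa1 (log2 -3.34) and Tafa2 (-3.50) were lower and the other 2 did not pass (median -1.68, 0% higher and 50% lower), and the call of Tafa1 was lost when no Tafa4 UMI was required.

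Against all other neurons, most injury and immediate early genes were lower. Of 14 cytoskeletal genes 7 were lower and 1 higher (median -0.36, 7.14% higher and 50% lower). Nefm, the medium neurofilament, was at 189 and 179.7 CPM in TH neurons, against 987 and 833 CPM in other neurons (log2 difference -2.30 ± 0.13, adjusted p = 3.44e-09). Gap43, a growth-cone protein, was at 47.6 and 64.7 CPM in TH neurons, against 567 and 576 CPM in other neurons (log2 difference -3.36 ± 0.15, adjusted p = 6.85e-10). Injury genes were lower in 15 of 17 and higher in 1 (median -2.28, 5.88% higher and 88.2% lower); the exception, the small heat shock gene Hspb1, was at 1373 and 1268 CPM in TH neurons, against 622 and 983 CPM in other neurons (log2 difference 0.75 ± 0.16, adjusted p = 0.00156). Immediate early genes were lower in 14 of 22 and higher in 1 (median -1.08, 4.55% higher and 63.6% lower). Some genes are counted in more than 1 list, so the lists are not separate evidence. The injury list shares Npy and Nts with the neuropeptide list, Gap43 with the cytoskeletal list and Jun with the immediate early list, among others. Jun was at 34.6 and 67.9 CPM in TH neurons, against 219.8 and 301 CPM in other neurons (log2 difference -2.39 ± 0.16, adjusted p = 1.28e-08). Fos was at 57.0 and 188 CPM in TH neurons, against 111 and 371 CPM in other neurons (log2 difference -0.97 ± 0.13, adjusted p = 3.22e-05). For Fos, replicate 2 was above replicate 1 in both classes by more than the classes differed within a replicate. The calls of Atf3, Btg2, Fosl2 and Hspb1 were lost without the library term. Of 29 genes of oxidative phosphorylation 6 were higher and none lower (median 0.050, 20.7% higher and 0% lower), and all 6 are mitochondrially encoded. The largest of them, mt-Cytb, differed by 0.50 ± 0.14 on the log2 scale (adjusted p = 0.0116), and mt-Cytb, mt-Atp6, mt-Nd1 and mt-Nd2 did not pass without the library term or with thinned cells. The calls of mt-Cytb, mt-Nd1 and mt-Nd2 were also lost with Th at 2 per 10000. With Th at 10 per 10000, that of mt-Cytb was lost and mt-Atp6, mt-Nd1 and mt-Nd2 changed sign (-0.058, -0.16 and -0.21); the median mitochondrial share, given above, was also higher in TH neurons, and its part in these calls was not tested.

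Glial and other cell markers were read in the same sums. The 5 satellite glia markers summed to 837 and 1173 CPM in TH neurons, against 1572 and 1566 CPM in other neurons. The 5 Schwann cell markers summed to 2096 and 1997 CPM in TH neurons, against 735 and 767 CPM in other neurons. No marker of either list was at 0. Per neuron, the 10 genes together had a median of 23.5 and 27.4 per 10000 UMIs in TH neurons, against 10.9 and 12.7 in other neurons. The Schwann sum was carried by 3 genes. Pmp22 was at 1413 and 1231 CPM in TH neurons, against 406 and 465 CPM in other neurons. Scn7a was at 387 and 431 CPM in TH neurons, against 191 and 193 CPM in other neurons. Mbp was at 246 and 278 CPM in TH neurons, against 45.1 and 40.8 CPM in other neurons. Endothelial markers summed to 2.18 and 15.4 CPM in TH neurons, against 24.5 and 15 CPM in other neurons. Macrophage markers summed to 3.92 and 22.2 CPM in TH neurons against 11.3 and 14.8 CPM in other neurons. Erythroid markers summed to 97.9 and 68.0 CPM in TH neurons against 109 and 108 CPM in other neurons, with no marker at 0. Leaving out neurons with glial markers at 100 or more per 10000, which were 1 and 6 TH neurons and 52 and 61 other neurons, changed no call among the 147 genes named by rule against all other neurons.

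The TH neurons were also set against single classes. All 4 classes entered 1 fit of 12808 genes, so the 3 comparisons share the TH sums and are given side by side. Against Mrgprd neurons, polymodal non-peptidergic nociceptors, 1972 genes were higher (15.4% of genes tested) and 1570 lower (12.3%). With a log2 difference of 1 or more, 1429 were higher (11.2%) and 964 lower (7.53%). Necab2, a neuronal calcium-binding protein, was at 47.7 and 68.3 CPM in TH neurons and had no UMI in Mrgprd neurons, at least 358-fold higher when Mrgprd neurons are set to the floor of 3 UMIs. AI504432 and Gnb3 also had no UMI in Mrgprd neurons (at least 190.3-fold and 146-fold higher). Tmem132c, Ighg2c and Scin had 1 to 3 UMIs there; the ratios were 1279 (counting interval 229 to 50566) for Tmem132c, 1068 (counting interval 295 to 8831) for Ighg2c and 1008 (counting interval 180.3 to 39899) for Scin. On the lower side, Ly86 was at 18.4 and 20.3 CPM in TH neurons, against 2883 and 2091 CPM in Mrgprd neurons (log2 difference -7.00 ± 0.41, adjusted p = 2.12e-07). Also lower were Otoa (log2 -7.28), Gm765 (-6.99) and Tmem233 (-6.63, or -7.41 and -6.11 within replicates 1 and 2). Barx2 and Fam167a had 0 and 3 UMIs each in TH neurons and were lower by ratios of 90.1 (counting interval 30.6 to 438) and 81.3 (counting interval 27.6 to 396).

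Against Tac1 neurons, peptidergic nociceptors, 1876 genes were higher (14.6% of genes tested) and 2234 lower (17.4%). With a log2 difference of 1 or more, 1088 were higher (8.49%) and 1688 lower (13.2%). Hcrtr2, the orexin 2 receptor, was at 57.7 and 49.2 CPM in TH neurons, against 0.227 and 1.98 CPM in Tac1 neurons (log2 difference 5.69 ± 0.50, adjusted p = 3.84e-06, or 7.88 and 4.62 within replicates 1 and 2). Also higher were Cacna1i (log2 5.79, with 0 UMIs in Tac1 neurons of replicate 1 and 4.64 within replicate 2), Slc51a (5.77, or 7.71 and 4.79 within replicates 1 and 2), Bmp15 (5.77, or 9.25 and 4.59 within replicates 1 and 2), Cckar (5.72, or 7.38 and 4.69 within replicates 1 and 2) and Tmem132c (5.71, or 6.96 and 4.74 within replicates 1 and 2). Sstr2, a somatostatin receptor, was lower, at 0 and 2.35 CPM in TH neurons, against 67.7 and 80.6 CPM in Tac1 neurons (log2 difference -5.89 ± 0.48, adjusted p = 2.45e-06, with 0 UMIs in TH neurons of replicate 1 and -5.10 within replicate 2). So were Prlr (log2 -5.64, or -7.31 and -4.93 within replicates 1 and 2), Fgg (-5.62, or -7.33 and -4.999 within replicates 1 and 2), Npy1r (-5.54, or -6.43 and -5.02 within replicates 1 and 2) and Negr1 (-5.50). Against Nefh neurons, large myelinated neurons, 2125 genes were higher (16.6% of genes tested) and 2413 lower (18.8%). With a log2 difference of 1 or more, 1135 were higher (8.86%) and 1672 lower (13.1%). Fxyd6, a regulator of the sodium pump, was at 537 and 676 CPM in TH neurons, against 3.34 and 24.5 CPM in Nefh neurons (log2 difference 5.78 ± 0.45, adjusted p = 2.56e-06, or 7.35 and 4.82 within replicates 1 and 2). Also higher were Ceacam10 (log2 9.002, with 0 UMIs in Nefh neurons of replicate 1 and 7.02 within replicate 2), Dgkk (6.81, with 0 UMIs in Nefh neurons of replicate 1 and 5.28 within replicate 2), Cacna1i (5.61, with 0 UMIs in Nefh neurons of replicate 1 and 4.196 within replicate 2) and Bhlha9 (5.56, or 7.03 and 4.29 within replicates 1 and 2). Slc51a had 1 UMI in Nefh neurons, a ratio of 360.2 (counting interval 64.4 to 14257). Runx3, the factor of proprioceptors, had 0 and 1 UMIs in TH neurons, 469.9-fold lower (counting interval 83.8 to 18615). Kcnq3 (log2 -7.80, or -6.82 and -8.78 within replicates 1 and 2) and Slc17a7 (-7.26, or -6.39 and -8.38 within replicates 1 and 2) were lower too. Slit2, Tmem108 and Hapln4 had 2, 3 and 3 UMIs in TH neurons over both replicates, lower by ratios of 234 (counting interval 64.4 to 1942), 180.5 (counting interval 61.3 to 879) and 188 (counting interval 64.0 to 917).

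The order of levels differed by gene. Piezo2 was at 905 and 916 CPM in TH neurons, 346 and 353 in Mrgprd neurons, 59.8 and 83.6 in Tac1 neurons and 382 and 469 in Nefh neurons. TH neurons were thus above each class, with log2 differences of 1.38 ± 0.17, 3.68 ± 0.19 and 1.11 ± 0.17 (adjusted p = 6.52e-05, 3.84e-07 and 3.85e-04). Gfra2 did not separate TH from Mrgprd neurons (494 and 609 CPM in TH neurons, against 291 and 391.6 CPM in Mrgprd neurons; adjusted p = 0.124), but was higher than in Tac1 (log2 4.197, or 5.08 and 3.42 within replicates 1 and 2) and Nefh neurons (3.45). Cacna1h did not separate TH from Nefh neurons (36.5 and 53.8 CPM in TH neurons, against 49.8 and 69.9 CPM in Nefh neurons; adjusted p = 0.160), and was higher than in Mrgprd (4.70, or 4.27 and 5.61 within replicates 1 and 2) and Tac1 neurons (1.48). Scn10a in TH neurons lay below Mrgprd (log2 -1.66) and Tac1 neurons (-0.58) and above Nefh neurons (1.84). Zfp521, Slc17a8 and Cdh9 were higher in TH neurons than in each of the 3 classes, for Slc17a8 by 6.72 ± 0.56, 4.92 ± 0.42 and 4.51 ± 0.50 on the log2 scale. Within replicates 1 and 2, the Slc17a8 difference was 6.62 and 8.04 against Mrgprd neurons and 6.46 and 3.16 against Nefh neurons. Of the 20 genes known from these neurons, 13, 17 and 16 were higher and 1, 2 and 2 lower than in Mrgprd, Tac1 and Nefh neurons.

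Several of the lists described above, some of which share genes, were also counted against each class, and the comparisons share the TH neurons. Of all genes tested, 15.4% were higher and 12.3% lower than in Mrgprd neurons. These shares were 14.6% and 17.4% against Tac1 neurons, and 16.6% and 18.8% against Nefh neurons. Neuropeptide genes gave 5 higher and 6 lower of 16 (median -0.11) against Mrgprd neurons, 2 higher and 10 lower of 16 (median -1.58) against Tac1 neurons and 4 higher and 5 lower of 16 (median -0.41) against Nefh neurons. Opioid and other inhibitory receptors gave 3 higher and 3 lower of 14 (median 0.79) against Mrgprd neurons, 2 higher and 11 lower of 14 (median -3.93) against Tac1 neurons and 0 higher and 5 lower of 14 (median -1.66) against Nefh neurons. For itch receptors the counts were 1 higher and 6 lower of 12 (median -1.79) against Mrgprd neurons, 2 higher and 9 lower of 12 (median -2.91) against Tac1 neurons and 3 higher and 5 lower of 12 (median -1.56) against Nefh neurons. The inhibitory receptors had a median above 0 against Mrgprd neurons and below 0 against Tac1 and Nefh neurons. Against Mrgprd neurons only 3 of the 14 reached 10 CPM in either class, with 0 higher and 1 lower. The median there thus rests largely on genes at low levels. Injury genes gave 4 higher and 5 lower of 15 (median 0.24) against Mrgprd neurons, 0 higher and 10 lower of 15 (median -2.35) against Tac1 neurons and 0 higher and 9 lower of 15 (median -1.50) against Nefh neurons. Immediate early genes gave 3 higher and 3 lower of 21 (median 0.31) against Mrgprd neurons, 1 higher and 13 lower of 21 (median -1.64) against Tac1 neurons and 2 higher and 6 lower of 21 (median -0.67) against Nefh neurons. Against Mrgprd neurons neither list was mostly lower, and the immediate early shares (14.3% higher and 14.3% lower) lay near those of all genes. The TAFA family gave 1 higher and 0 lower of 4 (median 0.67) against Mrgprd neurons, 1 higher and 2 lower of 4 (median -0.91) against Tac1 neurons and 0 higher and 4 lower of 4 (median -3.38) against Nefh neurons. Oxidative phosphorylation genes gave 0 higher and 0 lower of 29 (median 0.13) against Mrgprd neurons, 0 higher and 0 lower of 29 (median 0.061) against Tac1 neurons and 8 higher and 9 lower of 29 (median -0.071) against Nefh neurons.

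**Figure D5:**
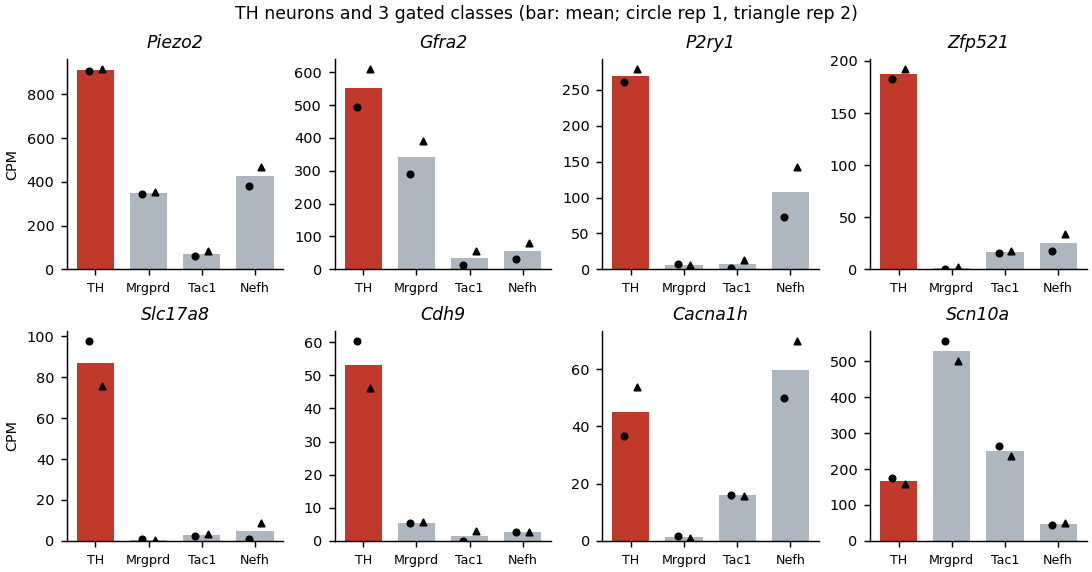
CPM of 8 genes in TH neurons (red, left) and in Mrgprd, Tac1 and Nefh neurons (grey), as the mean of the replicates (bar) with replicate 1 (circle) and replicate 2 (triangle). Piezo2, P2ry1, Zfp521, Slc17a8 and Cdh9 are highest in TH neurons, Cacna1h is somewhat higher in Nefh neurons, without passing the test, and Scn10a is highest in Mrgprd neurons.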

How the data were processed

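The deposited files hold UMI counts per gene and barcode, not normalized by the authors, made with Cell Ranger 5.0.1 on mm10 after base calling with CASAVA 1.8, per the submitters' processing notes. Total counts were 113251556 and 102347251 UMIs in replicates 1 and 2, over 31253 features, of which 31107 match a GENCODE M21 gene (GRCm38). Neurons were selected as described in the report, with thresholds per 10000 UMIs. No doublet was removed; Scrublet marked 555 and 1020 barcodes, a share set by an assumed rate of 0.8% per 1000 barcodes. Cells are not replicates: UMIs were summed per class and library and tested with edgeR 4.0.16 (R 4.3.3; TMM, filterByExpr, quasi-likelihood, library as a term, Benjamini-Hochberg at 0.05), as 4 sums (14376 genes, 1 residual degree of freedom) against all other neurons and 8 sums (12808 genes, 3 residual degrees) against the classes. The libraries pair the sums because both sides of each contrast come from the same library. The spread of each gene was moderated with information shared across genes, with a median of 14.2 and 8.67 prior degrees of freedom in the 2 fits. Printed CPM come from these fits, so values of a gene differ slightly between them.

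Named genes are the 12 largest log2 differences in each direction (6 for each class) past the threshold, with the same sign in both libraries and at least 20 CPM on the higher side, and up to 4 examples a direction of each gene list at 10 CPM or more; other list genes (Runx1, Pou4f1, Gm7271, Lypd1, Bok, Iqsec2, Gch1, Scn9a, Trpv4, Nmu, Oprm1, Hrh3, Fos, those that did not pass and those whose order over the classes is given) were chosen after their values were seen. The members, their rule and the 35 gene lists were chosen with earlier results of these data known. Drgx, in 1 list, has no feature. A few genes that the rules pick are not reported here. Counts behind shares are given after thinning to 10000 UMIs with exact intervals. On simulated data with known changes, 96% of 2-fold and 100% of 4-fold changes were recovered for TH neurons minus all other neurons (14275 genes; 1 of 197 calls false). Against Mrgprd, Tac1 and Nefh neurons (12392 genes), 75%, 83% and 81% of 2-fold and 100% of 4-fold changes were recovered, with 5 of 180, 12 of 195 and 7 of 188 calls false. The simulation gave all genes the same spread and changed only a small set at 10 CPM or more, equally in both directions. The data differ in this, so the rates need not hold for them. Alternatives tried were DESeq2 1.42.0, RLE size factors, no filter, no library term, thinned cells, a required fold of 1.5, other thresholds of the rule and leaving out groups of neurons or a library.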

Additional observations from a re-analysis of the deposited data

Results flagged for a closer look

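In replicate 2, 52 barcodes with under 10000 UMIs met the rest of the rule for TH neurons, of 5837 shallow neuron-like barcodes; in replicate 1 it was 1 of 3251. In a shallow barcode a single Th UMI can meet the level per 10000, so a count above 0 carries no test. These barcodes enter no comparison in the report.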

How the results depend on the processing

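The counts of genes called against all other neurons, Mrgprd, Tac1 and Nefh neurons (4563, 3542, 4110 and 4538) became 2444, 2061, 2544 and 2438 when a fold of at least 1.5 was required, and 2048, 1360, 1686 and 2110 with cells thinned to 10000 UMIs, where fewer genes are tested; 196 list genes were then called, against 305. DESeq2 called 2739 against all other neurons. With no replicate block (no library term) the counts were 3536, 3059, 3624 and 3968. Every other alternative run stayed within 1.5 times. The share of TH neurons moved to 1.88% and 3.39% with Th at 10 per 10000, and to 19.8% in replicate 2 with Th at 2.

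Of 147 genes named or given as list examples against all other neurons, 14 lost the call without the library term, 9 with DESeq2, 22 of 146 with thinning, 3 with Th at 2, 3 with no Tafa4 UMI required and 10 with Th at 10, where mt-Atp6, mt-Nd1 and mt-Nd2 also changed sign (-0.058, -0.16 and -0.21; the cause was not tested). The 36 calls named against the classes kept direction and threshold under every alternative with a test. Leaving out a library gives values with no test, since no residual degree of freedom is left against all other neurons; no sign changed. Leaving out the neurons just outside the rule (Th at 2 or more), chosen after seeing the data, gave 4791 calls. Depth and free RNA limit what can be said of genes at a few UMIs in TH neurons.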

Other observations

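Within TH neurons thinned to 10000 UMIs, the variance-to-mean ratio ranked 3099 genes, with a median of 0.980 for the lower of the 2 replicates. Only genes above a minimum mean count in both replicates were ranked. Calca had rank 1 (69.0 and 76.5 in replicates 1 and 2), Malat1, a nuclear long noncoding RNA, rank 2 (48.0 and 150.0) and the glial gene Apoe rank 3 (35.4 and 40.8). Mitochondrial genes, S100a6 (11.6 and 8.29) and the imprinted RNA Meg3 (6.53 and 16.2) followed. Some genes that led the comparison with all other neurons were below that minimum and have no rank. Among those ranked, Ceacam10 had the highest rank, 23 (3.96 and 3.71). It was left in 68.6% and 53.3% of TH neurons and reached 14 and 12 UMIs in single neurons. Pcp4, a calmodulin-binding peptide gene, had ratios of 4.82 and 6.23. These ratios are a description of the chosen neurons and carry no test.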
